A study of Mus musculus with 12 samples.

Results

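The genes described here are 10 output and repressor genes of the circadian clock, chosen by symbol: Dbp, Hlf, Tef, Nfil3, Bhlhe40, Nr1d1, Nr1d2, Per1, Per2 and Per3. They were chosen with earlier results of these data known. All 10 had a row among the 12774 gene symbols measured. The cells were C17.2, an immortalized mouse neural progenitor line, in 2 stable derivatives that each carried a tagged receptor for thyroid hormone. C17.2a carried the alpha receptor and C17.2b the beta receptor, and no line without an added receptor was analysed here. Each line was treated with T3 (triiodothyronine, the active hormone) at 1e-07 M or left untreated, for 6, 12 or 24 h, and every culture, untreated ones included, had first spent 24 h without serum. Whether a line is 1 clone is not given in the sources used here. With 2 lines, 2 treatments and 3 times the study has 12 libraries of sequence tags, and a group is 1 library without replicates.

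In the mammalian clock, the activators CLOCK and ARNTL (BMAL1) bind E-box sequences and switch on the genes of their own repressors, the PER and CRY proteins. BHLHE40 also represses at E-boxes, and the nuclear receptors REV-ERB alpha and beta, encoded by Nr1d1 and Nr1d2, repress Arntl. Rhythm is passed on to metabolic and other genes through DBP, HLF and TEF, related bZIP factors that activate through the D-box sequence, while NFIL3 represses through the same sequence.

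The start regions of these genes show where such sequences lie, so those that hold any of the motifs searched, named below, are printed here. RefSeq promoters of GRCm38.p6 matched 8 of the 10 genes, with 10 start sites, and the 250 bases before each start were searched on both strands. Bhlhe40 and Per2 had no entry. The search covered the E-box CACGTG, the D-box TTANGTAA, the CRE (a cyclic AMP response element) TGACGTCA and the nuclear receptor half-site AGGTCA. Capitals mark these motifs on either strand.
Per3 (chr4:151044666-151044915, minus strand): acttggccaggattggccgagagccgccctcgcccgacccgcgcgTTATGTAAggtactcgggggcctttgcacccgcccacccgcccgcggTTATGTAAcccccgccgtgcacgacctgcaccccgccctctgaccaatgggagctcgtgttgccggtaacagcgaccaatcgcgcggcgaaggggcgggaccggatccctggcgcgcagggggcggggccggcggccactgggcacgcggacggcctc
Hlf (chr11:90390918-90391167, minus strand): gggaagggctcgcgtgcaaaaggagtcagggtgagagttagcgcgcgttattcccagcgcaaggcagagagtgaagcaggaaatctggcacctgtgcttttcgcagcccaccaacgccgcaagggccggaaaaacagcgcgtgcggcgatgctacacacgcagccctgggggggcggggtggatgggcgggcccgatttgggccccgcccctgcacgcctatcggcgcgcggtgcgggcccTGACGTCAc
Tef, first of 2 starts (chr15:81802423-81802672, plus strand): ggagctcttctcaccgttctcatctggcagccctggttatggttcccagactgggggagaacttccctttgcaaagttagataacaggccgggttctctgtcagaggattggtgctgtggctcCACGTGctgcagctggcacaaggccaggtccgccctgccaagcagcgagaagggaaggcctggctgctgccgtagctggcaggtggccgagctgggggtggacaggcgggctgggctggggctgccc
Tef, second of 2 starts (chr15:81811164-81811413, plus strand): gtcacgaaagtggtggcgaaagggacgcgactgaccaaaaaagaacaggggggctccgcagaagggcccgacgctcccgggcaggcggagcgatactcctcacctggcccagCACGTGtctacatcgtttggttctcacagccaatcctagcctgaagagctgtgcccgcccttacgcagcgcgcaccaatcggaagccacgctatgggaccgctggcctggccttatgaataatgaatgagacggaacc
Per1, first of 2 starts (chr11:69098699-69098948, plus strand): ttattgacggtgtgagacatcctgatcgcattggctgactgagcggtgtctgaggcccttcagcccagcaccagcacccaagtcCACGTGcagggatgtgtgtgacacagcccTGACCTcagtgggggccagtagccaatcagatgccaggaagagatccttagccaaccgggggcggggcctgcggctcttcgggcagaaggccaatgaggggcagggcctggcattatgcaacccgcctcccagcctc
Nfil3 (chr13:52981040-52981289, minus strand): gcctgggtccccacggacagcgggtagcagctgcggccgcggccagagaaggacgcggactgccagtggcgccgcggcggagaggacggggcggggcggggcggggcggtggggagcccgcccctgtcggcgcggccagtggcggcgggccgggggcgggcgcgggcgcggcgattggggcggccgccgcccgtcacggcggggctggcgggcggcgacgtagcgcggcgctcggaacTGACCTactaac
Nr1d2 (chr14:18239107-18239356, minus strand): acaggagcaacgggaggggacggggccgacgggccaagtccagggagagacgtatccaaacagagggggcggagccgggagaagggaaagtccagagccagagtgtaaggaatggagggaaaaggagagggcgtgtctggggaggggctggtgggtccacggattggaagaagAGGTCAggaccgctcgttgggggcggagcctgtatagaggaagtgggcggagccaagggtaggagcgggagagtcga
The D-box stood in 1 of the 10 start regions, that of Per3, at 205 and 158 bases before the start, and in 2.06% of all 32851 start regions searched. The E-box stood in 3 of the 10, both starts of Tef and the first of Per1, against 6.02% of all. The half-site stood in 3 of the 10 (Nfil3, Nr1d2 and the first start of Per1) against 14.0% of all, and the CRE in 1 (Hlf) against 1.55%. No start region of these genes held the half-site as a direct repeat with 4 bases between, the classic arrangement for thyroid hormone receptors, which 0.0152% of all start regions held. A match of letters is a description and does not show binding, and Dbp, Nr1d1 and the second start of Per1 held none of these letters in this window.

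Levels are in RPM, tags of a gene scaled to the same total in every library, and 1 tag was worth 0.0524 to 0.141 RPM, for an implied depth of 7.12e+06 to 1.91e+07 tags. Hlf was measured by the fewest tags, 36.1 at most and 3 or fewer in 6 libraries. The lowest implied tags were 7.0 for Per2, 9.0 for Per3, 11.0 for Nr1d1 and 20.0 for Per1, and 28.0 or more for each of the other 5. Of 8 neural progenitor markers 7 had a row, and their summed level was 1351 to 3065 RPM with T3 and 2321 to 5778 RPM without, while Pax6 had none. Markers of microglia (4) and endothelium (3) had no row, those of neurons summed to 45.1 to 577.8 RPM with T3 and 71.4 to 313.6 RPM without, and those of astrocytes to 42.4 to 65.0 RPM with T3 and 51.1 to 69.5 RPM without. Oligodendrocyte markers summed to 99.6 to 222.4 RPM with T3 and 87.2 to 124.1 RPM without, and the part of any of these in the results below was not tested. Hr, a corepressor and direct T3 target, had 34.25 to 115.2 RPM in the 6 libraries labelled T3 and 1.69 to 9.36 RPM in the 6 untreated ones. All T3 levels of 1.47% of 10577 genes lay above all untreated ones in this way. Klf9, another T3 target, was at 1.15 (SE 0.26, adjusted p 0.0322 in limma, lost without any single pair other than that of C17.2a at 24 h). The C17.2a pair of 24 h stood apart: in it 18.25% of 10577 genes were lower with T3 by more than 1 on the log2 scale. In the other 5 pairs 0.86% to 1.71% were. This ratio does not show which of the 2 libraries of the pair is the unusual one. Results that rest on this pair are therefore given with and without it.

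With T3 the D-box activator genes Dbp and Hlf rose, the D-box repressor gene Nfil3 fell, and the third activator gene, Tef, did not pass the test. Of the repressors, Bhlhe40 and Nr1d2 rose, while Nr1d1, Per1, Per2 and Per3 did not pass. Hlf passed the filter on low values through its T3 libraries alone, so its call is left out of the counts set against all genes. Of the other 9 genes 3 rose and 1 fell after adjustment over all 10577 genes tested, where 4.09% of genes rose, 2.35% fell and 6.45% did either. The median log2 fold change of these 9 was 0.45, against -0.01 for all genes. As the genes were chosen with earlier results of these data known, the counts and the median describe them and do not test them as a set. The calls and fold changes come from limma on log2(RPM + 1). Each pair of a T3 and an untreated library of the same line and time was a block. The threshold was 0.05 on the Benjamini-Hochberg adjusted p. With no label naming separate cultures, the p-values speak for the spread over these 6 pairs of different line and time, which may be technical. In bulk RNA, fewer cells that express a gene and less of its RNA per cell cannot be told apart. Without the C17.2a 24 h pair 8 of the 10 passed, Hlf included, the added ones being Tef, Nr1d1 and Per3. Calls rose over all genes too, to 1554 of 10391, against 682 of 10577 with all pairs. Leaving out any other single pair brought the count with Hlf from 5 to 3 or 4, and that of all genes to 319 to 463.

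**Figure D1:**
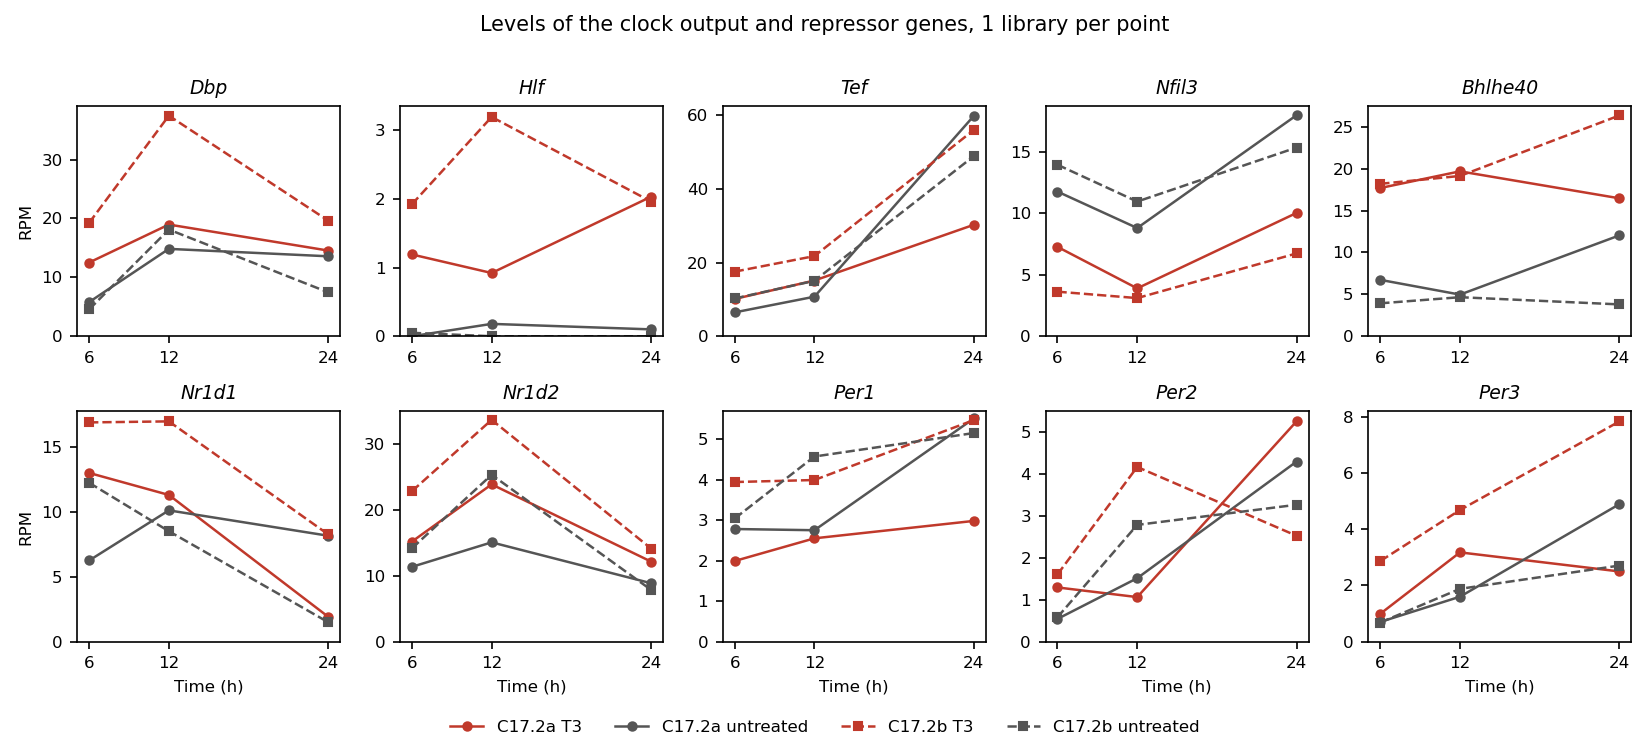
Level in RPM (vertical axis, from 0) against time in hours for the 10 genes, 1 library per point, with T3 in red, untreated in grey, C17.2a as circles with solid lines and C17.2b as squares with dashed lines; an entry of N/A is drawn at 0. For Bhlhe40 and Hlf the 6 T3 points lie above the 6 untreated points, and Tef climbs to 24 h in all 4 courses.

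Hlf, the factor of the D-box family with the lowest level here, was nearly undetected without hormone. In C17.2a its level was 1.19, 0.92 and 2.03 RPM with T3 at 6, 12 and 24 h. Untreated C17.2a had N/A, 0.18 and 0.10 RPM at these times. In C17.2b it was 1.92, 3.19 and 1.96 RPM with T3, and 0.05 RPM, N/A and N/A untreated. The T3 libraries were thus all above the untreated ones, which all lay under the 0.157 to 0.408 RPM that 3 tags are worth in them, so no ratio is given. Its shared log2 fold change was 1.40 (SE 0.18, n = 6 pairs, adjusted p 0.00281 in limma), higher in 6 of 6 pairs, and 1.39 without the C17.2a 24 h pair. The size of this fold change depends on the pseudocount, from 0.43 at a pseudocount of 5 to 2.04 at 0.5.

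Dbp, the best known output factor of the clock, had 12.52, 18.97 and 14.55 RPM with T3 in C17.2a at 6, 12 and 24 h, against 5.80, 14.84 and 13.58 RPM untreated. In C17.2b it had 19.26, 37.46 and 19.62 RPM with T3, against 4.56, 18.12 and 7.46 RPM untreated. The level with T3 was above that without in each of the 6 pairs, but the 2 sets of levels overlapped across times. The 12 h library was the highest of each of the 4 courses. The ratio of RPM ran from 1.07 in the C17.2a 24 h pair to 4.22 in the C17.2b 6 h pair. Over the 6 pairs the log2 fold change was 0.93 (SE 0.22, adjusted p 0.0392 in limma). This call was lost without any single pair other than that of C17.2a at 24 h (adjusted p 0.0582 to 0.134), and without that pair the value was 1.10 (adjusted p 0.00167 in limma). Dbp overlaps Sphk2, a sphingosine kinase gene on the opposite strand, in GENCODE M21, and whether counting used strand is not given. Sphk2 had a shared log2 fold change of 0.08 (SE 0.20, adjusted p 0.893 in limma).

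Tef followed time more than hormone. Its level with T3 in C17.2a was 10.14, 15.15 and 30.30 RPM at 6, 12 and 24 h, against 6.49, 10.75 and 59.91 RPM untreated. With T3 in C17.2b it was 17.56, 21.79 and 56.07 RPM, against 10.27, 15.07 and 48.97 RPM untreated. It was higher with T3 in 5 pairs and lower in the C17.2a 24 h pair, where its log2 ratio was -0.96. The shared log2 fold change was 0.25 (SE 0.21, adjusted p 0.608 in limma), and without that pair it was 0.49 (SE 0.10, adjusted p 0.00795 in limma).

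Nfil3, the repressor at the D-box, was lower with T3 in every pair. In C17.2a its level was 7.26, 3.89 and 10.02 RPM with T3, against 11.75, 8.79 and 17.96 RPM untreated. In C17.2b it was 3.62, 3.10 and 6.73 RPM with T3, against 13.93, 10.94 and 15.33 RPM untreated. The 6 T3 levels were not all below the 6 untreated ones, a pattern found in 0.529% of 10577 genes. In C17.2a the 24 h T3 level stood above the 12 h untreated one. The ratio of RPM ran from 0.260 to 0.618. Over the 6 pairs the log2 fold change was -1.12 (SE 0.17, adjusted p 0.00508 in limma), and it was -1.19 (adjusted p 0.000446) without the C17.2a 24 h pair. Without the pair block the adjusted p was 0.0529.

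**Figure D2:**
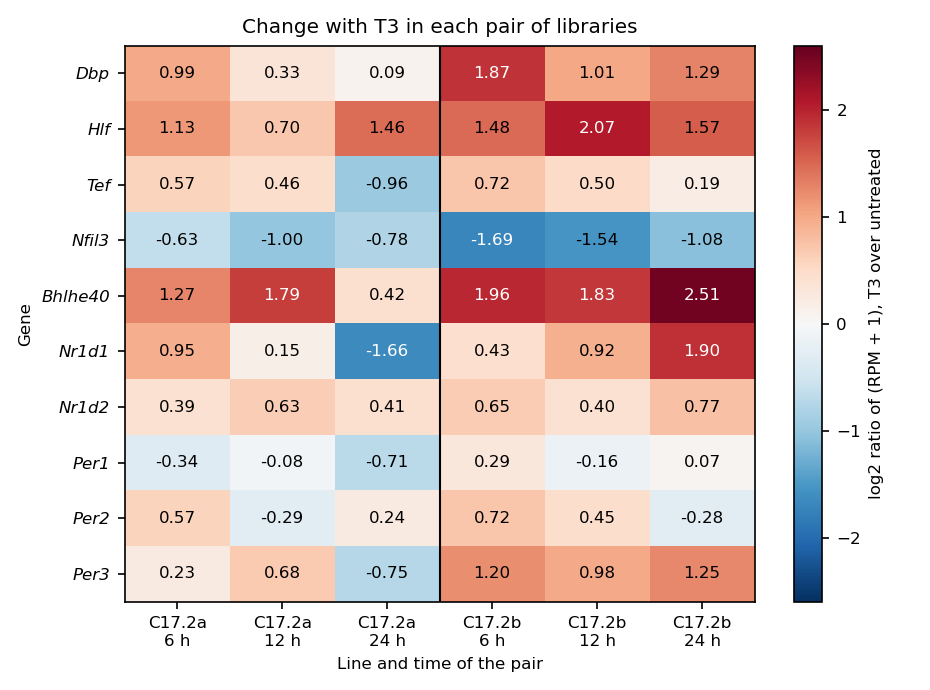
Log2 ratio of (RPM + 1), T3 over untreated, for the 10 genes (rows) in each of the 6 pairs of libraries (columns, by line and time), with red for higher and blue for lower with T3 and the value written in each cell. Hlf, Dbp, Bhlhe40 and Nr1d2 are positive and Nfil3 is negative in all 6 pairs, and Tef, Nr1d1 and Per3 are negative in the C17.2a 24 h pair alone. The share of all genes with the same sign in all 6 pairs was not counted.

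Bhlhe40, which encodes a repressor at E-boxes and is also a known gene of the hypoxia response, had the largest shared change of the 10 on this scale. Its level in C17.2a was 17.69, 19.68 and 16.46 RPM with T3 at 6, 12 and 24 h, against 6.73, 4.97 and 12.04 RPM untreated. In C17.2b it was 18.19, 19.13 and 26.35 RPM with T3, against 3.93, 4.66 and 3.80 RPM untreated. The 6 T3 levels were all above the 6 untreated ones, a pattern found in 1.47% of the 10577 genes. Hlf had it too, but is not set against that share, since it passed the filter through its T3 libraries alone. The highest untreated level was that of C17.2a at 24 h, where the ratio of RPM was 1.37, against 2.63 to 6.93 in the other 5 pairs. The fit gave a shared log2 fold change of 1.63 (SE 0.24, adjusted p 0.00501 in limma), and 1.87 (SE 0.15) without the C17.2a 24 h pair.

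Nr1d2, the gene of REV-ERB beta, changed less but evenly. With T3 it had 15.21, 23.92 and 12.17 RPM in C17.2a, against 11.37, 15.10 and 8.88 RPM untreated. In C17.2b it had 22.88, 33.74 and 14.16 RPM with T3, against 14.19, 25.38 and 7.87 RPM untreated. Each T3 level was above its partner, by a ratio of 1.33 to 1.80, although the sets of levels overlapped across times. The shared log2 fold change was 0.54 (SE 0.11, adjusted p 0.0191 in limma). The call was lost without the C17.2a 12 h pair or any single pair of C17.2b (adjusted p 0.0694 to 0.0877 in limma), and without the pair block (0.714).

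Nr1d1, the gene of REV-ERB alpha, had 13.02, 11.32 and 1.91 RPM with T3 in C17.2a, against 6.26, 10.13 and 8.17 RPM untreated. In C17.2b it had 16.92, 17 and 8.27 RPM with T3, against 12.26, 8.52 and 1.49 RPM untreated. The 24 h pairs of the lines went opposite ways, with log2 ratios of -1.66 in C17.2a and 1.90 in C17.2b, and the other 4 pairs lay at 0.15 to 0.95. The shared log2 fold change was 0.45 (SE 0.38, adjusted p 0.605 in limma), and 0.87 (SE 0.21, adjusted p 0.0156) without the C17.2a 24 h pair. Nr1d1 overlaps Thra, the gene of the alpha receptor, on the opposite strand in GENCODE M21, so their tags cannot be told apart if counting ignored strand. Thra was also low in the C17.2a T3 library of 24 h, at 0.12 RPM against 5.0 RPM untreated. That is under the 0.358 RPM that 3 tags are worth in this T3 library. In the other 5 pairs Thra had 2.34 to 4.63 RPM with T3 and 2.04 to 5.83 RPM untreated, and in the C17.2b 24 h pair it was at 4.63 RPM with T3 and 5.83 RPM untreated, while Nr1d1 was at 8.27 RPM with T3 and 1.49 RPM untreated. Whether tags of the added alpha receptor of C17.2a enter the Thra row is not given in the sources used here. Untreated, C17.2b minus C17.2a, Thra was at 0.08 on the log2 scale (SE 0.19, adjusted p 0.852 in limma).

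The Period genes encode the partners of the CRY repressors, and none of the 3 passed. Per3 had 0.99, 3.18 and 2.5 RPM with T3 in C17.2a, against 0.70, 1.6 and 4.90 RPM untreated, and 2.87, 4.69 and 7.85 RPM with T3 in C17.2b, against 0.68, 1.88 and 2.71 RPM untreated. It was higher with T3 in 5 of 6 pairs, the exception again being C17.2a at 24 h. Its shared log2 fold change was 0.60 (SE 0.26, adjusted p 0.265 in limma), and 0.87 (SE 0.17, adjusted p 0.0047) without that pair. In GENCODE M21 Per3 overlaps Camta1 on the same strand, and Camta1 had a shared log2 fold change of 0.38 (SE 0.15, adjusted p 0.221 in limma).

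Per2 had 1.29, 1.06 and 5.25 RPM with T3 in C17.2a, against 0.54, 1.51 and 4.29 RPM untreated. In C17.2b it had 1.6, 4.16 and 2.52 RPM with T3, against 0.58, 2.78 and 3.26 RPM untreated. Both 6 h pairs were higher with T3 and the later pairs were mixed, with a shared log2 fold change of 0.24 (SE 0.17, adjusted p 0.545 in limma). Per1 had 1.99, 2.55 and 2.98 RPM with T3 in C17.2a, against 2.78, 2.75 and 5.51 RPM untreated. In C17.2b it had 3.94, 3.99 and 5.47 RPM with T3, against 3.04, 4.57 and 5.15 RPM untreated. Per1 was lower with T3 in all 3 pairs of C17.2a and higher in 2 of 3 in C17.2b, and its shared log2 fold change was -0.15 (SE 0.15, adjusted p 0.675 in limma).

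**Figure D3:**
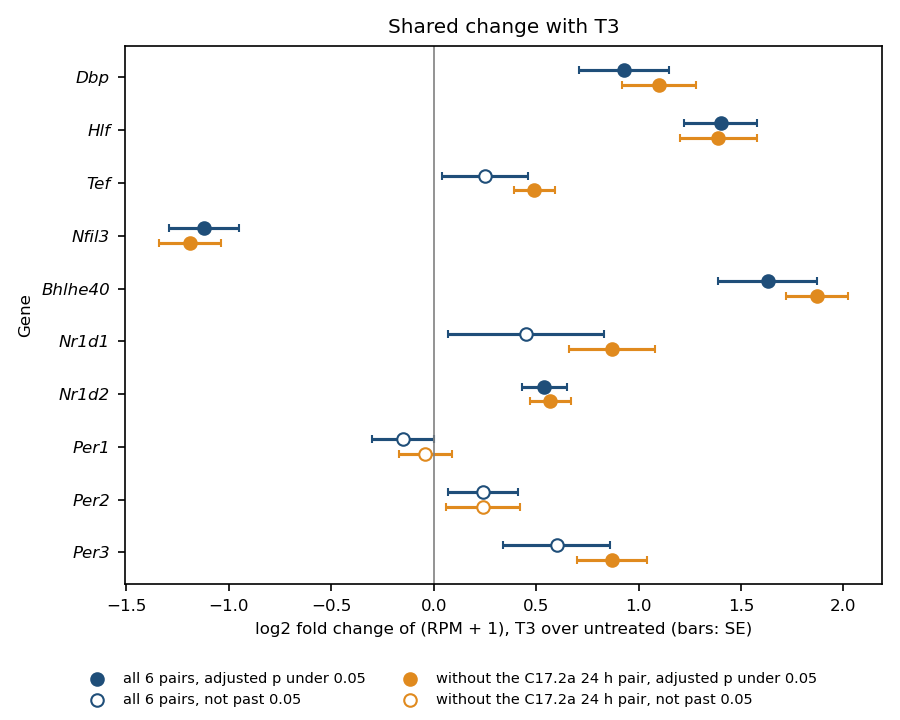
Shared log2 fold change of (RPM + 1), T3 over untreated (horizontal axis, bars are the SE of the limma fit), for each gene (vertical axis) over all 6 pairs in blue and without the C17.2a 24 h pair in orange; filled points have an adjusted p under 0.05. Tef, Nr1d1 and Per3 are filled only without that pair, and Hlf, Dbp, Bhlhe40, Nr1d2 and Nfil3 are filled in both.

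Taken by line, 4 of the 10 genes passed in C17.2b and none in C17.2a, but the difference between lines did not pass for any of them. In C17.2b Bhlhe40 rose by 2.1 (SE 0.27, n = 3 pairs, adjusted p 0.00618), Hlf by 1.70 (SE 0.23, 0.00704) and Dbp by 1.39 (SE 0.24, 0.018), and Nfil3 changed by -1.44 (SE 0.19, 0.00704), all in limma. The fit takes 1 estimate of the spread for both lines from all 12 libraries. The SE and p-values are thus not those of the 3 C17.2b pairs alone, and the C17.2a 24 h pair enters them. Leaving Hlf aside, 2 of 9 rose and 1 fell, where 2.25% and 0.86% of all genes did (3.11% in all), and their median was 0.61 on the log2 scale, against 0.05 for all genes. Each of the 4 calls, that of Hlf included, was lost without 1 or more single pairs of C17.2b, and none remained without that of 12 h. In C17.2a none of the 10 passed, where 1.37% of all genes did, although 3 of the 9 other than Hlf had an unadjusted p under 0.05, as 16.5% of all genes had. There Bhlhe40 was at 1.16 (SE 0.27, adjusted p 0.0962), Hlf at 1.10 (SE 0.23, 0.0671), Nfil3 at -0.80 (SE 0.19, 0.0991) and Dbp at 0.47 (SE 0.24, 0.352). Without the 24 h pair of C17.2a, Bhlhe40 (1.53, adjusted p 0.00218) and Nfil3 (-0.81, adjusted p 0.0494) passed in limma in this line, where 462 of 10391 genes did. In C17.2b the count was then 7, Hlf included, where 1178 of 10391 genes passed, against 329 of 10577 with all pairs.

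As a difference, C17.2b less C17.2a, the T3 change was 1.27 (SE 0.66) for Nr1d1, 1.09 (SE 0.39) for Per3, 0.94 (SE 0.38) for Bhlhe40, 0.91 (SE 0.33) for Dbp and -0.63 (SE 0.27) for Nfil3. None of the 10, and none of 10577 genes, passed in limma (0% called). An unadjusted p under 0.05 was found for 4 of the 10, Dbp, Nfil3, Bhlhe40 and Per3, and for 5.51% of all genes. Without the C17.2a 24 h pair the differences were 0.54 (SE 0.39) for Nr1d1, 0.69 (SE 0.28) for Per3, 0.57 (SE 0.27) for Bhlhe40, 0.72 (SE 0.29) for Dbp and -0.62 (SE 0.26) for Nfil3, and again none of the 10 passed. The median difference of the 9 genes other than Hlf was 0.45, against 0.12 for all genes, and that of all genes was -0.004 after scaling the libraries by median ratios. In the 6 h pairs, which do not involve the pair that stood apart, the log2 ratios of Dbp were 1.87 in C17.2b and 0.99 in C17.2a, and those of Nfil3 were -1.69 in C17.2b and -0.63 in C17.2a. Nr1d1 went the other way there, at 0.43 in C17.2b and 0.95 in C17.2a, and Bhlhe40 at 12 h was at 1.83 in C17.2b and 1.79 in C17.2a. Without T3 none of the 9 genes tested passed in limma between the lines (of all 10192 genes 2.93% were higher and 5.92% lower in C17.2b, 8.85% in all; after median-ratio scaling the calls were 358 higher and 464 lower, against 299 and 603), and 1 of the 9, Bhlhe40, had an unadjusted p under 0.05, at -0.72 (SE 0.25, adjusted p 0.119) for C17.2b minus C17.2a.

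The T3 response passed no test of a difference between times with all pairs kept. The response at 24 h minus that at 6 h passed for none of the 10 and for none of 10577 genes in limma (0% called), with an unadjusted p under 0.05 for 1 of the 10, Tef at -1.03 (SE 0.41, adjusted p 0.726), and for 5.61% of all genes. The other 9 values lay between -0.74 (Dbp) and 0.23 (Nfil3), with SE of 0.31 to 1.03, so changes of that order were not detectable with 2 pairs per time. Leaving out either 24 h pair leaves 1 pair at that time, so only values are given. Without that of C17.2b, the value was -2.35 for Nr1d1, -1.61 for Tef, -1.47 for Per3, -1.34 for Dbp and -1.2 for Bhlhe40. The other 5 lay between -0.69 (Per1) and 0.38 (Nfil3), and the median of all genes was -0.1. Without the C17.2a 24 h pair, Nr1d1 (1.2), Bhlhe40 (0.89) and Per3 (0.54) had the opposite sign, while Tef (-0.45) and Dbp (-0.14) did not. The median of all genes was then 0.07. At 6 h, the earliest time, the log2 ratios of Hlf, Bhlhe40, Nfil3 and Dbp were 1.48, 1.96, -1.69 and 1.87 in C17.2b and 1.13, 1.27, -0.63 and 0.99 in C17.2a.

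Several genes had their highest or lowest level at the same time with and without hormone. Dbp and Nr1d2 were highest at 12 h in all 4 courses (2 lines, with and without T3), as were 1.75% of genes. Nfil3 was lowest at 12 h in all 4, as were 6.69%, and Tef, Nfil3 and Per1 were highest at 24 h in all 4, as were 38.5%. After median-ratio scaling Dbp and Nr1d2 were still highest at 12 h (4.25% of genes), Nfil3 lowest at 12 h (3.26%) and Tef highest at 24 h (21.4%) in all 4, but Nfil3 was highest at 24 h in 3 courses and Per1 in 1. The lowest level of Dbp then differed with hormone, at 24 h in both T3 courses and at 6 h in both untreated ones. Before scaling it was at 6 h in all 4, as for 4.85% of genes. Without T3, 24 h against 6 h, Tef rose by 2.59 (SE 0.23, adjusted p 3.32e-05), Per2 by 1.61 (SE 0.28, adjusted p 0.000905), Per3 by 1.47 (SE 0.27, 0.0014), Dbp by 0.85 (SE 0.27, 0.0198) and Per1 by 0.70 (SE 0.25, 0.0385), all in limma with line as a block. That is 5 of 9 genes tested, where 43% of all genes rose and 13.1% fell (56.1% in all), so their share is near the background. The count was 3 without the C17.2b 6 h library. The median of all genes was 0.40 and of these 9 was 0.70. Scaling by median ratios moved the median of all genes to -0.018 and the split of calls to 2495 higher and 2685 lower, against 4384 and 1336. Under that scaling Tef (2.13), Per2 (1.29) and Per3 (1.15) still rose, Dbp and Per1 did not pass, and Nr1d2 fell by 0.97 and Nr1d1 by 1.42 on the log2 scale. Hlf was left out of this test by the filter, since no untreated library reached 1 RPM.

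**Figure D4:**
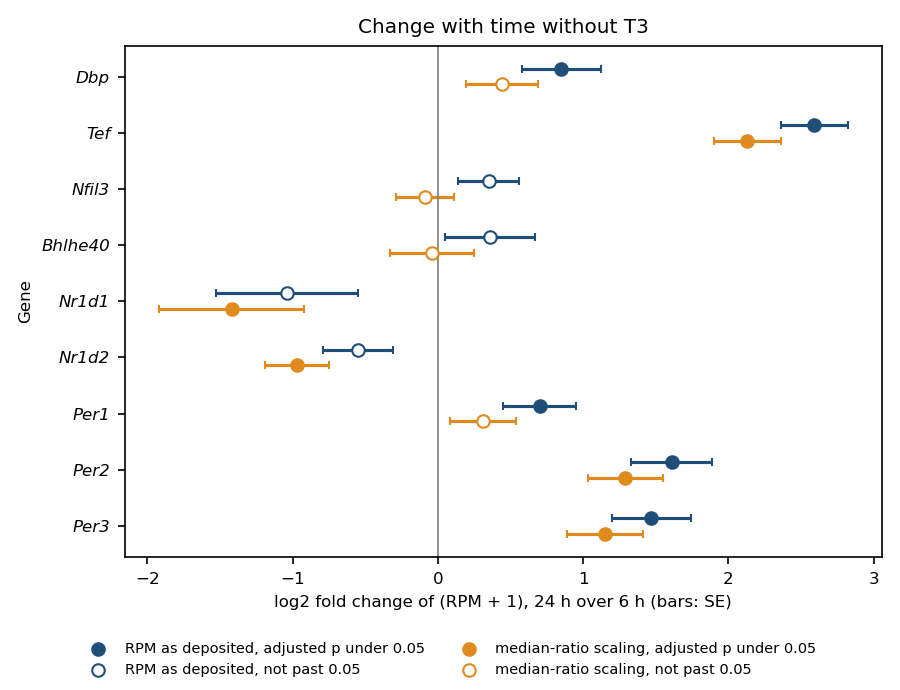
Log2 fold change of (RPM + 1), 24 h over 6 h in untreated cells (horizontal axis, bars are the SE of the limma fit), for the 9 genes tested, with RPM as deposited in blue and after median-ratio scaling in orange; filled points have an adjusted p under 0.05. Tef, Per2 and Per3 are filled on the higher side under both, and Nr1d1 and Nr1d2 are filled on the lower side after scaling alone.

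The rest of the clock was described through a list of 28 genes, also chosen with earlier results of these data known. Of these, 26 had a row and 19 passed the filter. With T3 4 of the 19 rose and 1 fell, with a median log2 fold change of 0.06, against 4.09%, 2.35% and -0.01 for all genes. The activators Clock and Arntl did not pass, at 0.22 (SE 0.14, adjusted p 0.466) and -0.44 (SE 0.19, adjusted p 0.272). Arntl, the target of the REV-ERB repressors, had 22.46, 21.73 and 29.70 RPM with T3 in C17.2a, against 36.26, 32.34 and 21.03 RPM untreated, and 16.07, 14.88 and 25.65 RPM with T3 in C17.2b, against 36.98, 23.50 and 27.94 RPM untreated. It was thus lower with T3 in 5 of 6 pairs, and without the C17.2a 24 h pair its change was -0.62 (SE 0.13, adjusted p 0.00771 in limma). Npas2, a relative of Clock, stayed at 0.28 RPM or less in every library and was not tested. The repressor genes Cry1 and Cry2 were at 0.33 (SE 0.15, adjusted p 0.293) and 0.27 (SE 0.16, adjusted p 0.433), and none of 7 kinase and ubiquitin ligase genes tested passed.

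The calls of the wider list lay among 7 known output genes tested. Por, the electron donor of microsomal cytochrome enzymes, rose by 1.79 (SE 0.08, adjusted p 9.68e-06), with 329.4 to 558.2 RPM with T3 and 87.35 to 177.1 RPM untreated. Usp2, a deubiquitinase gene, rose by 0.91 (SE 0.13, adjusted p 0.00465), and its ratio of RPM was 1.76 to 2.97 over the pairs. Cdkn1a, an inhibitor of cyclin-dependent kinases, rose by 0.76 (SE 0.17, 0.0339), and Nampt, the enzyme of NAD salvage, by 0.46 (SE 0.09, 0.0199). Lonrf3 changed by -0.75 (SE 0.17, 0.0311), all adjusted p being from limma. Wee1, a mitotic kinase gene, did not pass, at -0.26 (SE 0.13, adjusted p 0.343). The calls of Cdkn1a, Nampt and Lonrf3 were each lost without any 1 of 4 or 5 single pairs, and without the pair block (adjusted p 0.302 for Cdkn1a, 0.0867 for Nampt and 0.0596 for Lonrf3), as was that of Usp2 (0.465).

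**Figure D5:**
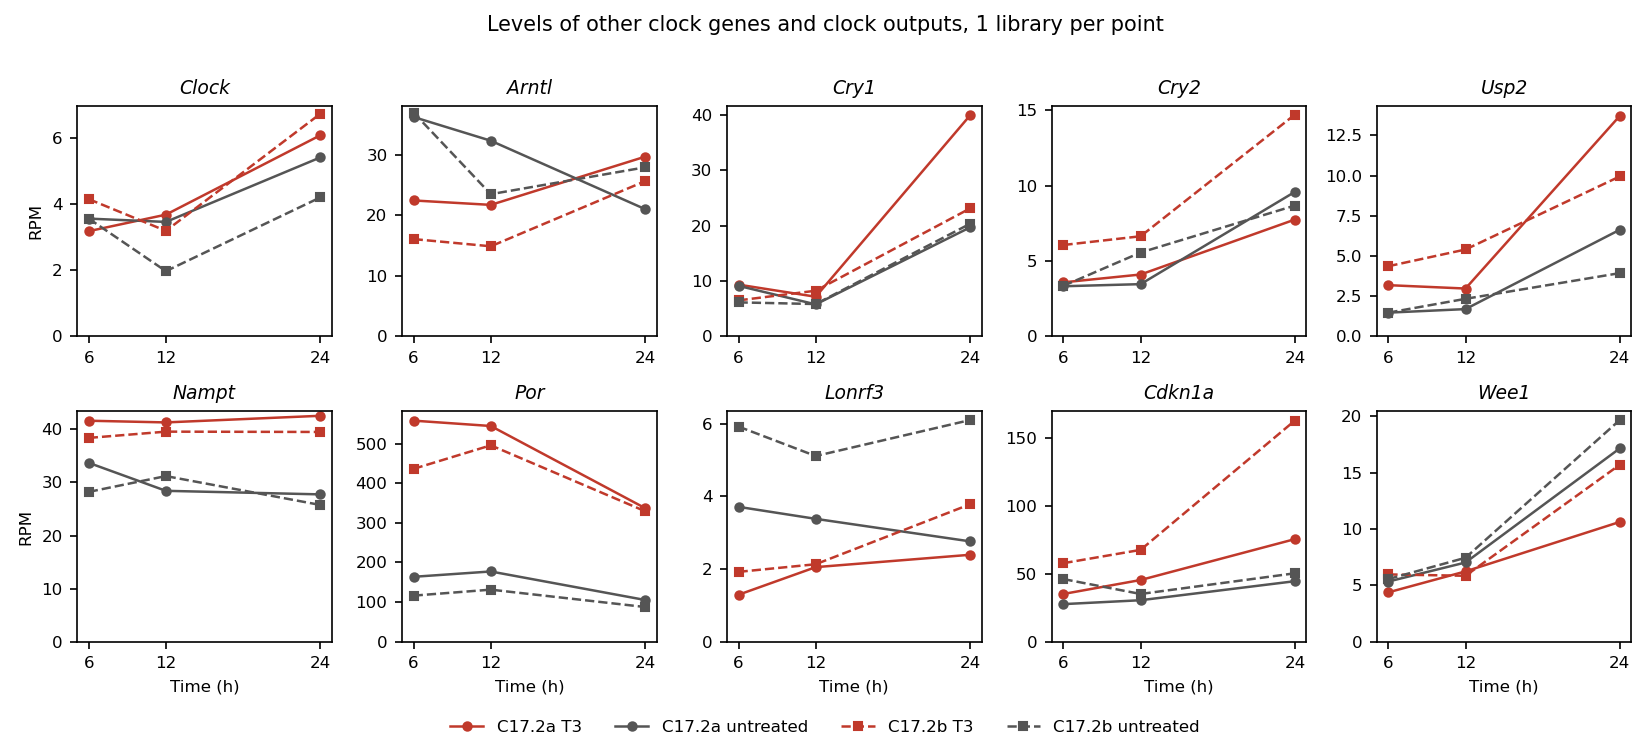
Level in RPM (vertical axis, from 0) against time in hours for 10 other clock and clock output genes, 1 library per point, with T3 in red, untreated in grey, C17.2a as circles with solid lines and C17.2b as squares with dashed lines. Por and Nampt with T3 lie above all untreated points, as 1.47% of 10577 genes do, and Arntl with T3 lies below its untreated course except in C17.2a at 24 h.

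The genes most alike to the 5 that passed were found as the smallest root mean square difference of log2(RPM + 1), centred per gene, over the 12 libraries. For Hlf they were Slc35a3 (0.228), Shc2 (0.277) and Slc1a5 (0.280), against a spread of Hlf itself of 0.748. For Bhlhe40 they were Celsr2 (0.341), Greb1 (0.346) and Chst11 (0.358), with its own spread at 0.900. For Nfil3 they were S100a10 (0.282), Adam12 (0.311) and Artn (0.319), with its own spread at 0.705. Nr1d2 was nearest to Fbxo8 (0.274), Klhl24 (0.279) and Glul (0.288), with its own spread at 0.571. Dbp had no close match, since its nearest, Urod, differed by 0.485 against a spread of 0.741, followed by E2f8 (0.498) and Cobl (0.499). None of these was another of the 10 genes.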

How the data were processed

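The authors deposited 1 table of RPM (tags scaled to the library total) for 12774 gene symbols in 12 columns, 1 per library. The unit was read from the values, since each column sums to 999929.6 to 999981.6. Digital gene expression tags were named by the series title and the build mm9 by the submitters' processing notes. The aligner, the assignment of tags to genes and its use of strand are not given in the sources used here. An entry of N/A, found in 1 or more libraries for 1877 symbols, was read as 0. Whole multiples of 1 tag (tolerance 0.0055 RPM) made up 89.0% to 93.8% of values under 1.5 RPM, so no test on counts was run. The limit of 3 tags covers counting error only.

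A gene entered a fit where 3 or more of its libraries reached 1 RPM. Tests used limma 3.58.1 in R 4.3.3 (eBayes with a trend, Benjamini-Hochberg adjustment over all genes tested) on log2(RPM + 1). A fold change on this scale understates that of low genes. The pair of line and time was the block for T3 (5, 4 and 3 residual degrees of freedom for the shared, line and time fits), and line or time in untreated cells (2). The scripts were tested on simulated data. All 10 members, the wider clock genes past 0.05, Clock, Arntl, Npas2, Cry1 and Cry2 were named by rule, with Thra, Hr and Klf9 as checks; Sphk2 and Camta1 were added after their overlap was seen. The members and lists were chosen with earlier results of these data known. Alternatives were median-ratio scaling, no filter, pseudocounts of 0.5 and 5, no block, and leaving out each pair. The counts without Hlf and the order of times after scaling were added after the data were seen.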

Additional observations from a re-analysis of the deposited data

Results flagged for a closer look

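The Tef log2 ratio of the C17.2a 24 h pair, -0.96, lay far from the other 5, which were 0.19 to 0.72. Its gap to the nearest was 0.685 of the whole range, over Dixon's critical value for 6 values. Chance marks about 5% of such sets, and the 10 genes gave 10 sets. The same pair had the lowest ratio of Nr1d1 (-1.66), Per3 (-0.75), Per1 (-0.71), Bhlhe40 (0.42) and Dbp (0.09), none of which passed that limit.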

How the results depend on the processing

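With all settings, the shared T3 changes of Hlf and Bhlhe40 stayed past 0.05 in limma (adjusted p up to 0.0162 and 0.0286), and no member's shared change reversed. Member counts in this section include Hlf, which passed the filter through its T3 libraries alone, so they are not to be set against the counts of all genes. The pairs of line and time are not replicate numbers. Without that block the members past 0.05 in the shared fit were Hlf and Bhlhe40, with Dbp (adjusted p 0.332 in limma), Nr1d2 (0.714) and Nfil3 (0.0529) lost. The count of all genes fell to 240, against 682. Dbp was also lost with no filter (0.0618). Without the block the counts of all genes were 28 in C17.2a, 86 in C17.2b and 1 between untreated lines (902 with it). The members past 0.05 were then Hlf and Bhlhe40 in C17.2b, and 3 members for 24 h against 6 h untreated. In C17.2a 1 member passed with median-ratio scaling (Bhlhe40), with no filter (Hlf) or with a pseudocount of 0.5 (Hlf), against 0. Leaving out single pairs gave, for members and all genes, 3 to 8 and 319 to 1554 (shared), 0 to 2 and 32 to 462 (C17.2a), 0 to 7 and 39 to 1178 (C17.2b), 0 and 0 to 2 (line difference), and 0 to 5 and 0 to 3342 (24 h minus 6 h response). The highest counts came without the C17.2a 24 h pair, except the last. That came without the C17.2b 24 h pair, a fit in which the C17.2a pair alone stands for 24 h. Leaving out single untreated libraries gave 3 to 6 members and 3940 to 5864 genes for time, and 0 to 1 and 412 to 1178 for line. Changes that did not pass in the reported fits reversed: in C17.2a Tef (-0.04) and Per3 (-0.01) with a pseudocount of 5, Tef (-0.25), Per2 (-0.02) and Per3 (-0.03) without its 6 h pair, Tef (-0.19) and Per3 (-0.26) without its 12 h pair, and Nr1d1 (0.55) without its 24 h pair. Per1 in C17.2b reversed (-0.04) without its 6 h pair. Untreated with time, Nfil3 (-0.09) and Bhlhe40 (-0.04) reversed with median-ratio scaling, Bhlhe40 (-0.18) without the C17.2a 24 h library and Nr1d1 (0.06) without that of C17.2b. Apart from fewer libraries, the cause was not tested. Over all left-out pairs these ran, in C17.2a, from -0.25 to 0.52 for Tef, -0.75 to 0.55 for Nr1d1, -0.02 to 0.41 for Per2 and -0.26 to 0.46 for Per3, in C17.2b from -0.04 to 0.18 for Per1, untreated with time from -0.18 to 0.9 for Bhlhe40 and -2.14 to 0.06 for Nr1d1, and for the shared change of Sphk2 from -0.01 to 0.29. Depth limits Hlf most, with 3 or fewer implied tags in 6 libraries, followed by Per2, Per3 and Nr1d1, with minima of 7.0, 9.0 and 11.0.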

Other observations

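Among the kinases that act on clock proteins, Gsk3b had 5.84 RPM in the C17.2a T3 library of 24 h and 60.94 RPM in its untreated partner. In the other 5 pairs it had 65.74 to 95.19 RPM with T3 and 69.04 to 93.23 RPM untreated. Csnk1d, a casein kinase gene, had 54.87 RPM in that T3 library and 160.2 RPM in its partner, while the C17.2b 24 h pair had 147.3 RPM with T3 and 122.8 RPM untreated. These genes were picked out after their values were seen.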
